A study of Mus musculus with 6 samples.

Results

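Activated CD8+ T cells, the lymphocytes that kill infected and tumour cells, read cytokines through receptors built from a small set of shared chains. The genes examined were 10 such chains, taken from the table by gene name: Il2ra, Il2rb and Il2rg of the IL-2 receptor, Il4ra, Il21r, Il12rb1 and Il12rb2 of the IL-4, IL-21 and IL-12 receptors, Il18r1 and Il18rap of the IL-18 receptor, and Ifngr1 of the interferon gamma receptor. Each name matched 1 row of the 41095 genes in the table. All 10 had a mean of at least 1 FPKM (reads scaled by gene length and by a library size) in each group, so none passed the filter through a single group. The samples were CD8+ T cells of wild-type mice, taken from spleen by positive selection. They were grown on plates that antibodies to CD3 (5 µg/mL) and CD28 (2 µg/mL) had coated for 24 h. The antibodies engage the T cell receptor and its costimulator. Medium for both groups held recombinant murine IL-2 at 30 U/mL, so the ligand of 3 of the chains was supplied in every library. The 3 control libraries had no treatment. The 3 acetate libraries came from cells that had 48 h of the short-chain fatty acid acetate, at a dose taken to be 5 mmol/L although its unit has an odd form. The labels give 72 h of culture, while the submitters' design note compares cells from before acetate with cells from after it. If the groups were collected at different times, time in culture and acetate cannot be told apart. The labels used here state neither strain, age nor sex, nor whether different animals or cultures stand behind the libraries of a group. The p-values therefore measure only the spread between these libraries, which may be technical.

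IL-2Rβ and the common γ chain carry the IL-2 signal to the kinases JAK1 and JAK3 and on to STAT5, while IL-2Rα adds affinity for IL-2. IL-4Rα and IL-21R each pair with the common γ chain and act mainly through STAT6 and STAT3. The IL-12 receptor joins IL-12Rβ1 and IL-12Rβ2 and acts through STAT4. The IL-18 receptor belongs to the IL-1 receptor family and signals through MyD88, and IL-12 and IL-18 together are known to induce interferon gamma in T cells. The measurements below are of transcripts, not of receptor protein at the cell surface.

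With acetate, both chains of the IL-18 receptor fell the most, Il18r1 by 37.8% and Il18rap by 37.6% of the control mean in FPKM. Il12rb2 (15.7% lower) and Il2ra (10.1% lower) also fell, and Il2rb rose by 18.5%. Il4ra rose by 11.7% and Il21r by 8.03%, and both of these calls were lost under other scalings of the libraries. Il2rg, Il12rb1 and Ifngr1 did not pass the test.

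By count, 3 of the 10 chains rose and 4 fell, by limma on log2(FPKM + 1) with Benjamini-Hochberg adjustment over 10867 tested genes and a threshold of 0.05. Over all tested genes 38.9% were called, 22.0% higher and 16.9% lower. With a minimum of 5 FPKM, which drops Il18rap, 47.4% of 7665 genes were called, and 62.1% of these calls were higher. At that minimum 3 chains rose and 3 fell. The median size of the log2 change was 0.15 for the 10 chains and also 0.15 for all tested genes, with medians of the signed change at -0.09 and 0.02. The groups did not overlap in 8 of the 10 chains, against 51.9% of all tested genes. Counts depended on scaling: after rescaling to TPM, where 35.5% of all tested genes were called, 1 chain rose and 7 fell. The share of higher genes among all calls then went from 56.6% to 36.4%. With cyclic loess (36.1% called) 1 chain rose and 7 fell, and with quantile normalization (36.3% called) 1 rose and 6 fell. With limma-voom on recovered reads (42.5% called) 2 chains rose and 5 fell, and 45.3% of all calls were higher. Il2rb rose and Il2ra, Il12rb2, Il18r1 and Il18rap fell under every scaling tried, and no chain changed sign. In bulk samples, fewer cells of a type and less RNA per cell cannot be told apart.

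**Figure D1:**
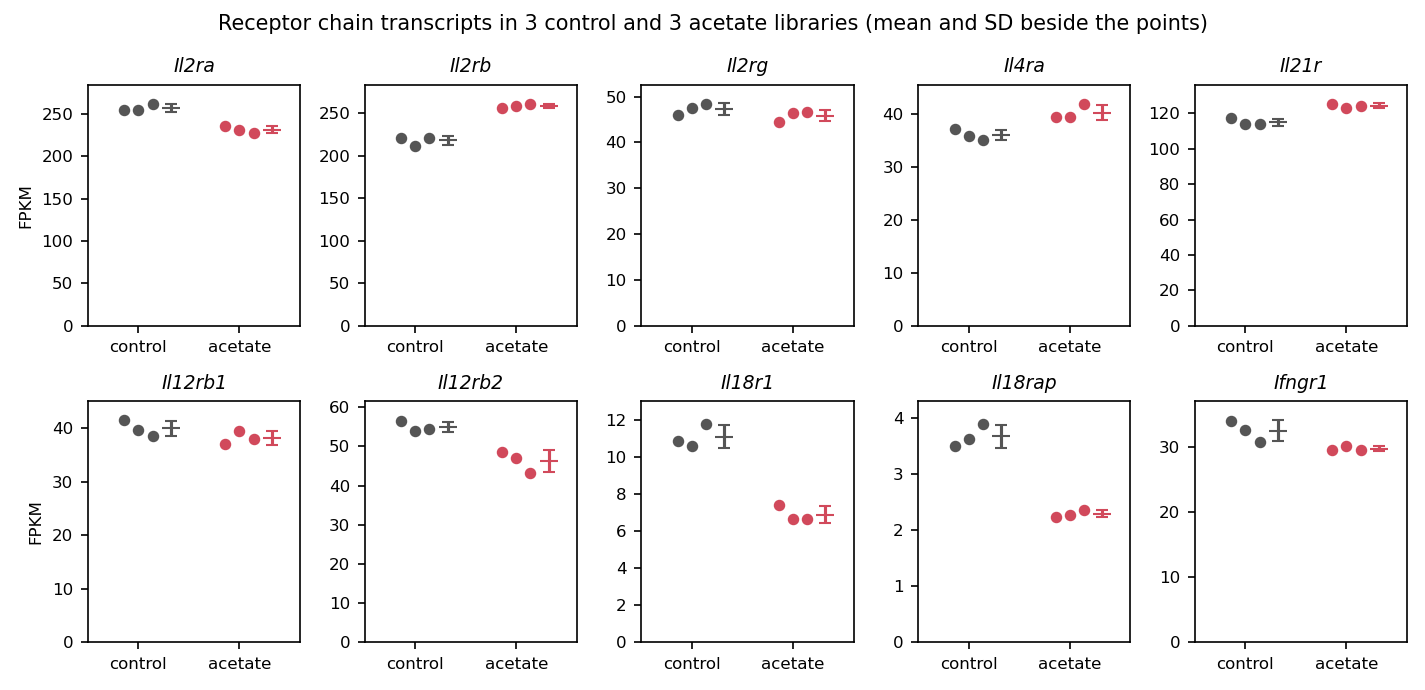
FPKM of each receptor chain (vertical axis, from 0) in the 3 control and 3 acetate libraries, with the mean and SD beside the points. Acetate values lie below all control values for Il18r1 (6.62 to 7.41 against 10.6 to 11.8 FPKM) and above them for Il2rb, while the groups overlap for Il2rg and Il12rb1.

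The libraries held 31098394 to 39140711 reads, recovered from the deposited values, and the 10 most abundant genes took 3.77% to 4.07% of them. The chains had 489 to 53926 reads per library, fewest for Il18rap, and the SD within a group was 0.704% to 6.59% of the mean. The summed level of the 10 CD8 T cell marker genes was 1523 to 1564 FPKM in controls and 1598 to 1720 FPKM with acetate, and 4 of them rose. That count was 2 with TPM rescaling or quantile normalization, 1 with cyclic loess, and 2 without control replicate 1, control replicate 3, acetate replicate 2 or acetate replicate 3. Of all 10867 tested genes, 2393 (22.0%) were called higher. That number was 1403 under TPM rescaling, 1909 under cyclic loess and 2051 under quantile normalization. It was 1710 to 2000 in the fits lacking any of the libraries just named. Whether the marker counts differed from these background shares was not tested. In the 5 CD4 and regulatory T cell markers the summed level was 32.8 to 34.2 FPKM in controls and 25.2 to 27.0 FPKM with acetate. The defining gene Cd4 was at 0.641 and 0.944 FPKM and Foxp3 at 0.0951 and 0.126 FPKM. Zbtb7b, a CD4 lineage transcription factor gene, fell from 13.0 ± 0.170 to 7.12 ± 0.388 FPKM (SD, n = 3 per group). Ikzf4 fell from 11.45 ± 1.33 to 9.20 ± 0.366 FPKM (limma adjusted p = 0.0232). That call was lost with no filter, and without control replicate 1, acetate replicate 2 or acetate replicate 3 (adjusted p = 0.051 to 0.0717). Cd40lg was at 8.28 ± 0.801 and 8.78 ± 0.557 FPKM without passing (adjusted p = 0.44). Natural killer markers summed to 104.8 to 112.9 and 43.6 to 51.0 FPKM, nearly all of it Gzma, which killer T cells also express and which fell, while the means of Ncr1 and Klrb1c were under 0.1 FPKM in both groups. Of the B cell markers, Cd79b was at 17.1 ± 0.783 FPKM in controls and 17.2 ± 0.579 FPKM with acetate without passing the test, and the mean of Ms4a1 was under 0.1 FPKM in both groups. The 10 myeloid and dendritic markers found summed to 11.3 to 12.8 and 11.9 to 12.7 FPKM, mostly Cd68, with Itgam and Siglech at 0, and the 4 red cell and platelet markers found reached at most 0.102 FPKM. The part of these marker differences in the receptor results was not tested.

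The IL-2 receptor chains differed in direction. Il2ra, which encodes the affinity chain CD25, was at 254.9, 254.0 and 261.7 FPKM in the controls and at 235.4, 230.5 and 227.2 FPKM with acetate. All 3 acetate values were below all 3 control values, a fall of 0.15 ± 0.036 (SE) on the log2(FPKM + 1) scale (95% interval -0.24 to -0.07, limma adjusted p = 0.0131). Leaving out control replicate 3 ended the call (adjusted p = 0.0531), as did leaving out acetate replicate 2 (adjusted p = 0.0536). Il2rb, which encodes the signalling chain CD122 shared with the IL-15 receptor, was at 221.5, 211.9 and 221.5 FPKM in the controls and at 256.9, 258.7 and 260.5 FPKM with acetate. These groups did not overlap either, and the rise was 0.24 ± 0.036 on the log2 scale (0.16 to 0.33, adjusted p = 0.00207). It passed under all 16 alternatives, at 0.14 to 0.26 on the log2 scale. Il2rg, the common γ chain, was at 45.9, 47.5 and 48.4 FPKM in the controls and at 44.5, 46.3 and 46.7 FPKM with acetate. The groups overlapped (adjusted p = 0.405), and the 95% interval of the log2 change ran from -0.13 to 0.05. It was called lower after rescaling to TPM (adjusted p = 0.0459) and with cyclic loess (adjusted p = 0.0277).

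FPKM is per length, so levels of the chains can be set side by side. The order of chains rests on the gene lengths used (5711 bases for Il2ra, 2785 for Il2rb), which may differ from the transcripts expressed. By FPKM, Il2ra was the most abundant of the 10 chains in the controls and Il2rb in the acetate libraries. In recovered reads Il2ra exceeded Il2rb in every acetate library (39743 to 52621 against 22219 to 28003). A shift of a ratio between the groups does not depend on the lengths. The ratio of Il2ra to Il2rb was 1.151, 1.199 and 1.181 in the controls and 0.916, 0.891 and 0.872 with acetate. It thus lay above 1 in all control libraries and below 1 in all acetate libraries, a difference of -0.40 on the log2 scale against SDs of 0.030 and 0.036. The exact two-sided permutation p was 0.1, the smallest that 3 against 3 libraries allow, and 0.133 with Benjamini-Hochberg adjustment over the 8 chain ratios computed. Il2rb stood at 4.62 ± 0.187 times the FPKM of Il2rg in controls and 5.65 ± 0.107 times with acetate, and Il2ra at 5.44 ± 0.107 and 5.04 ± 0.217 times. Neither ratio overlapped between the groups (exact permutation p = 0.1 for both). A ratio within a library does not depend on how the library total was scaled.

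**Figure D2:**
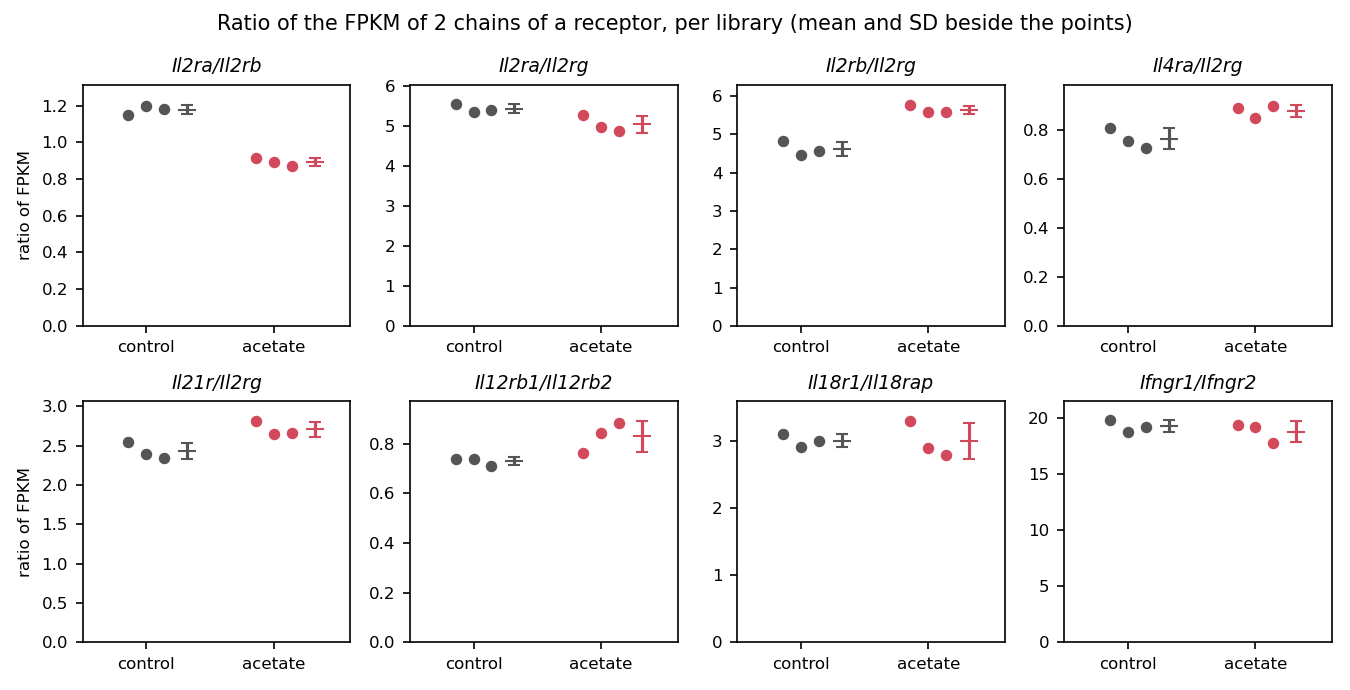
Ratio of the FPKM of 2 chains that join in a receptor (vertical axis, from 0) in each library, with the mean and SD beside the points. The Il2ra to Il2rb ratio is 1.177 ± 0.0242 in controls and 0.893 ± 0.0221 with acetate, while the Il18r1 to Il18rap ratio is 3.01 ± 0.0979 and 3.003 ± 0.269 and overlaps.

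Il4ra and Il21r, the private chains that pair with the common γ chain, lie next to each other on chromosome 7 with a gap of 26.4 kb, on the same strand. The table places Il4ra from 134844962 to 134872322 and Il21r from 134898686 to 134930070. These positions are the table's own, beside C57BL/6NJ gene identifiers, and differ from GRCm38 by 407.4 to 9295 kb over the 10 chains. Il4ra was at 37.1, 35.9 and 35.1 FPKM in the controls and at 39.5, 39.4 and 41.9 FPKM with acetate, a rise of 0.16 ± 0.041 on the log2 scale (0.06 to 0.25, limma adjusted p = 0.0202). Il21r was at 117.1, 113.9 and 113.7 FPKM in the controls and at 125.4, 122.7 and 124.2 FPKM with acetate, a rise of 0.11 ± 0.033 (0.03 to 0.19, adjusted p = 0.0328). Neither gene overlapped between the groups. The call of Il4ra was lost in 3 of the 6 fits that left a library out, those of control replicate 2, control replicate 3 and acetate replicate 3 (adjusted p = 0.0522 to 0.0717). It was also lost after TPM rescaling, quantile normalization and cyclic loess, at 0.08, 0.09 and 0.08 on the log2 scale (adjusted p = 0.151, 0.114 and 0.142). The call of Il21r did not survive the loss of any one library (adjusted p = 0.0541 to 0.105) and under 6 of 10 other settings, down to 0.01 on the log2 scale with cyclic loess (adjusted p = 0.843). Set against Il2rg in the same library, Il4ra stood at 0.763 ± 0.0425 times its FPKM in controls and 0.878 ± 0.0251 times with acetate. Il21r stood at 2.43 ± 0.107 and 2.71 ± 0.0935 times the FPKM of Il2rg. Neither ratio overlapped between groups (exact permutation p = 0.1 for both, adjusted p = 0.133).

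In the IL-12 receptor, the inducible chain moved and the shared chain did not pass. Il12rb2, which binds STAT4, was at 56.3, 53.8 and 54.4 FPKM in the controls and at 48.6, 46.9 and 43.2 FPKM with acetate. The groups did not overlap, and the fall was 0.24 ± 0.049 on the log2 scale (95% interval -0.36 to -0.13, limma adjusted p = 0.00747), past the threshold under all 16 alternatives. Il12rb1, which is shared with the IL-23 receptor, was at 41.6, 39.75 and 38.7 FPKM in the controls and at 37.0, 39.6 and 38.1 FPKM with acetate, and the groups overlapped (adjusted p = 0.276, interval -0.16 to 0.04). It was called lower with TPM rescaling, quantile normalization and cyclic loess (adjusted p = 0.0333, 0.0439 and 0.0286). The ratio of Il12rb1 to Il12rb2 was 0.729 ± 0.0157 in controls and 0.829 ± 0.0614 with acetate, and did not overlap (exact permutation p = 0.1, adjusted p = 0.133). In the table, 6399 bases of the Il12rb2 span on chromosome 6 (68887565 to 68980360) are shared with Serbp1 on the opposite strand, which was at 66.7 ± 0.968 and 69.8 ± 2.46 FPKM without passing (adjusted p = 0.22). Whether reads were counted by strand is not given in the sources used here, and the part of such reads in Il12rb2 was not tested.

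The IL-18 receptor genes had the largest changes of the 10. Il18r1, which encodes the chain that binds IL-18, was at 10.9, 10.6 and 11.8 FPKM in the controls and at 7.41, 6.625 and 6.621 FPKM with acetate. Il18rap, which encodes the accessory chain needed for signalling, was at 3.50, 3.63 and 3.91 FPKM in the controls and at 2.24, 2.28 and 2.365 FPKM with acetate. Neither gene overlapped between the groups. The ratio of control to acetate means was 1.608 for Il18r1 and 1.603 for Il18rap. As log2(FPKM + 1), a scale on which changes of low genes look smaller, Il18r1 fell by 0.61 ± 0.060 (-0.76 to -0.47, limma adjusted p = 0.000428) and Il18rap by 0.51 ± 0.064 (-0.65 to -0.36, adjusted p = 0.00111). Among all tested genes, 1.9% and 3.2% had a lower log2 change than these genes. Both calls held under every alternative run for them, 16 for Il18r1 and 15 for Il18rap, which is below a minimum of 5 FPKM. The ratio of Il18r1 to Il18rap was 3.01 ± 0.0979 in controls and 3.003 ± 0.269 with acetate, an overlap (exact permutation p = 0.9), with a log2 difference of -0.01 against SDs of 0.047 and 0.127.

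**Figure D3:**
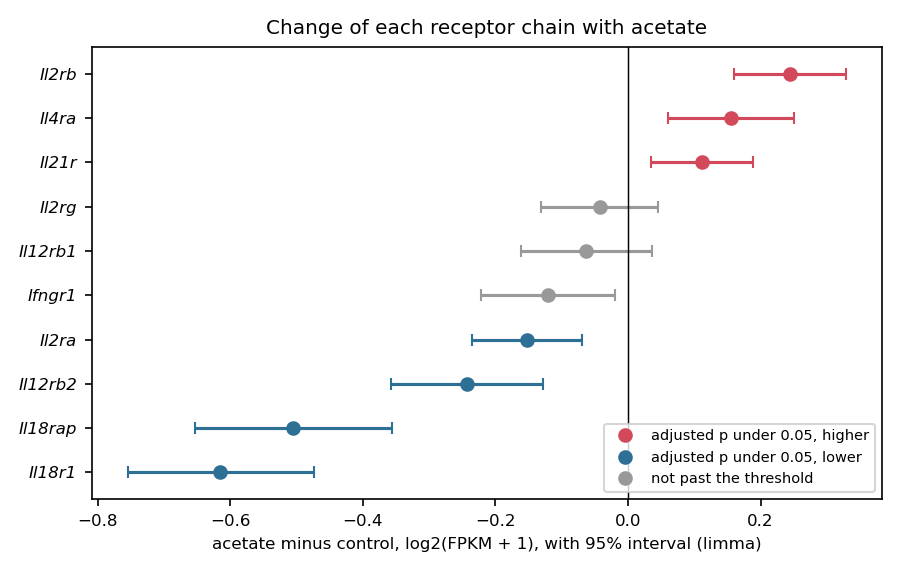
Change of each receptor chain with acetate on the log2(FPKM + 1) scale (horizontal axis) with the 95% interval from limma, ordered by size and coloured by call. Il18r1 and Il18rap lie lowest, at -0.61 and -0.51, and Il2rb lies highest at 0.24.

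Il18r1 and Il18rap lie 14.5 kb apart on chromosome 1, from 40872975 to 40912268 and from 40926776 to 40964159 in the table, at one end of a row of IL-1 receptor family genes on the same chromosome. The gene just before Il18r1 is Il1rl1, which encodes the IL-33 receptor ST2 and ends 0.137 kb from it. Il1rl1 fell from 3.34 ± 0.138 to 1.99 ± 0.296 FPKM (limma adjusted p = 0.00288) and held under its 15 alternatives. With so small a gap, reads at the boundary of Il1rl1 and Il18r1 may be split between them, and that split was not tested. Further along, Il1r1, the IL-1 receptor gene, fell from 1.56 ± 0.0914 to 1.01 ± 0.135 FPKM (adjusted p = 0.021), but not in 4 of the 6 fits with a library left out, those of controls 1 and 3 and acetate 1 and 2 (adjusted p = 0.0541 to 0.0692), nor under 3 other settings. Il1rl2, an IL-36 receptor gene, was at 1.24 ± 0.188 and 0.866 ± 0.0651 FPKM (adjusted p = 0.0777). Among 15 alternatives it was called lower under 2, limma-voom on recovered reads (adjusted p = 0.00387) and limma without the trend (adjusted p = 0.0244). Il1r2, the IL-1 decoy receptor gene, was below the filter at 0.737 ± 0.0389 and 0.596 ± 0.102 FPKM (adjusted p = 0.341 with no filter). In each of the 6 receptor genes of the row, the 3 acetate values were all below the 3 control values. Over all tested genes, 51.9% did not overlap between the groups, in either direction. Il1r1, Il1rl2 and Il1r2 were chosen after their values were seen. Slc9a4, the next gene on the other side, was listed at 0 in all libraries. Of 1673 pairs of tested genes next to each other in the table that were both called, 57.9% moved in the same direction, a figure that also covers the pair of Il4ra and Il21r.

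Promoter sequence for 8 of the 10 chains was found in RefSeq (build GRCm38.p6) as 10 windows from 250 bases before to 50 after a start site, each searched on both strands. The motifs were TTCNNNGAA, a STAT motif, TGANTCA, the AP-1 motif, and GGTGTGA, part of a T-box site. In that order they were found in 8.30%, 7.81% and 3.98% of 32851 mouse windows. Only this spacing of the STAT motif was searched. Matches were found in 2 windows, 1 of Il12rb2 and 1 of the 3 windows of Il18r1, all of them TTCNNNGAA. In Il18r1 the matches began 219 and 152 bases before the start site of their own window. That window begins at 40465756, past the ends of the other Il18r1 windows (40465601 and 40465670), so the matches come after those start sites. In Il12rb2 1 match began 123 bases before the start site. A match is a run of letters and not a bound site. The windows of Il18r1 (chr1:40465756-40466055, plus strand) and Il12rb2 (chr6:67376139-67376438, minus strand) are printed because they hold the matches, which are in capitals, and that of Il18rap (chr1:40515112-40515411, plus strand) because it moved with Il18r1 and holds none.
Il18r1: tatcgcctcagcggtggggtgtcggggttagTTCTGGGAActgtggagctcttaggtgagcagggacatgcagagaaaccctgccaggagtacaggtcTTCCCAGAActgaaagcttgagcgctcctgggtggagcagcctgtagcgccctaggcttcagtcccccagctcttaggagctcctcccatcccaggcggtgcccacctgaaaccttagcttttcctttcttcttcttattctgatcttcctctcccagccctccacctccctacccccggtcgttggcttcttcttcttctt
Il12rb2: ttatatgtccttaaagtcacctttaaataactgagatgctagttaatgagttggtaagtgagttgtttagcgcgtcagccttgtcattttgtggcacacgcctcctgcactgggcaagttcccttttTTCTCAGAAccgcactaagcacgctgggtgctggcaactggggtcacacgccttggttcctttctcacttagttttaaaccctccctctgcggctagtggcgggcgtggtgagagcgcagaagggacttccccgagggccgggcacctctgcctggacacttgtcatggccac
Il18rap: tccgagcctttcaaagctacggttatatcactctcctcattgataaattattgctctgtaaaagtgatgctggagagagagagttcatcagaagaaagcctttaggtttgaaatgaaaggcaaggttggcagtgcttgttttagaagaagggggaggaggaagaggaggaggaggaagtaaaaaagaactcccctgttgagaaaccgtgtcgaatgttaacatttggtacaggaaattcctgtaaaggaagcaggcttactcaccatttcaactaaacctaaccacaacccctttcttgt

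Ifngr1, the ligand-binding chain of the interferon gamma receptor, was at 34.1, 32.7 and 30.9 FPKM in the controls and at 29.6, 30.2 and 29.6 FPKM with acetate. The 3 acetate values were below the 3 control values, but the difference of -0.12 ± 0.043 on the log2 scale (95% interval -0.22 to -0.02) did not pass (limma adjusted p = 0.0602). It passed as lower under 5 of 16 alternatives, among them TPM rescaling (-0.20, adjusted p = 0.0115), limma-voom on recovered reads (-0.17, adjusted p = 0.0119) and leaving out control replicate 3 (-0.16, adjusted p = 0.0351). Its partner chain gene Ifngr2 was at 1.72, 1.74 and 1.61 FPKM in the controls and 1.53, 1.57 and 1.67 FPKM with acetate, and the groups overlapped (adjusted p = 0.598). Ifngr1 stood at 19.3 ± 0.545 times the FPKM of Ifngr2 in controls and 18.8 ± 0.896 times with acetate, again with an overlap (exact permutation p = 0.7).

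The 10 chains covered an 81.7-fold range of level in FPKM, and their order rests on the gene lengths used. In the controls the order was Il2ra, Il2rb, Il21r, Il12rb2, Il2rg, Il12rb1, Il4ra, Ifngr1, Il18r1 and Il18rap, and no neighbours in it overlapped. With acetate Il2rb came before Il2ra, and Il4ra, at 40.3 ± 1.40 FPKM, before Il12rb1, at 38.2 ± 1.27 FPKM. There the values of Il12rb2 and Il2rg overlapped, as did those of Il4ra and Il12rb1. By level, Il2ra exceeded 98.4% of tested genes and Il18rap 18.5%.

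**Figure D4:**
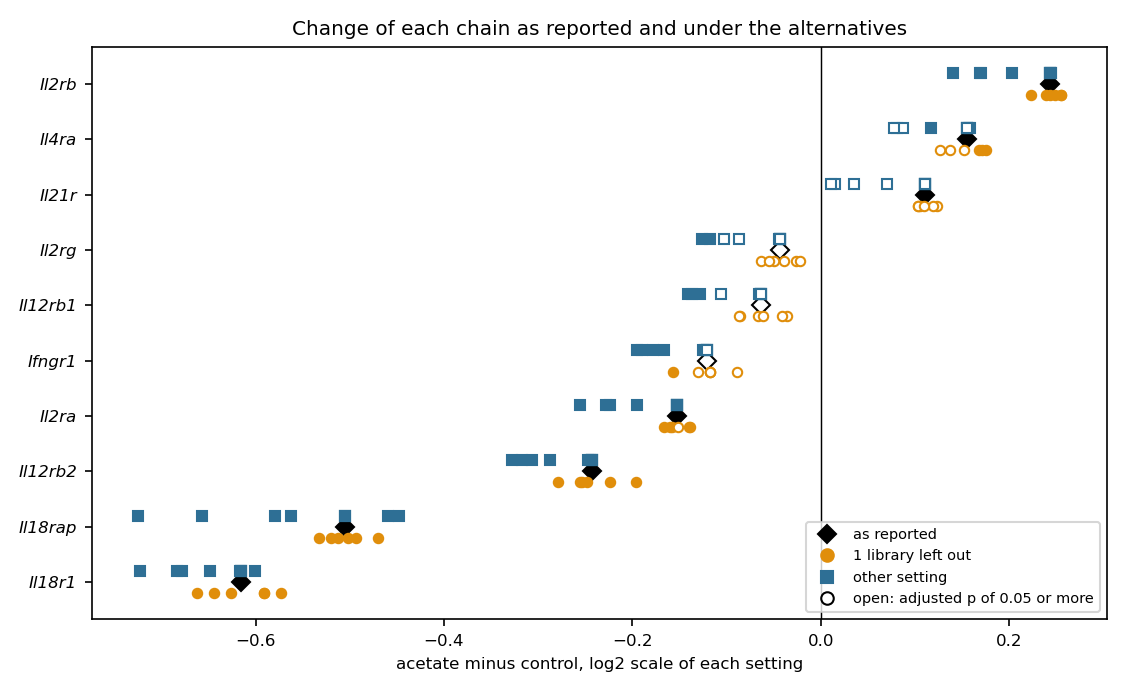
Change of each chain (horizontal axis, log2 scale of each setting) as reported, with 1 library left out, and under other settings, with open symbols where the adjusted p was 0.05 or more. All values of a chain lie on the same side of 0, and the symbols of Il2rb, Il12rb2, Il18r1 and Il18rap are all filled.

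Other cytokine receptor chains, from a list of 35 symbols of which 33 matched, moved in both directions. Of 18 tested, 7 fell and 3 rose, a median log2 change of -0.08. For this list and those below, the shares over all tested genes were 22.0% higher and 16.9% lower. Il7r, which uses the common γ chain, was at 80.1 ± 2.34 and 56.8 ± 1.75 FPKM, a fall of 0.49 ± 0.040 on the log2 scale (limma adjusted p = 0.000225). Il10ra, the IL-10 receptor chain, rose from 82.3 ± 0.388 to 98.99 ± 1.35 FPKM (adjusted p = 0.000895). Il15ra, the IL-15 counterpart of Il2ra and its neighbour 14.2 kb away on chromosome 2, was at 5.07 ± 0.188 and 4.67 ± 0.216 FPKM without passing (adjusted p = 0.193). The 3 rises became 1 when any library but acetate replicate 1 was left out, and the 7 falls became 4 without control replicate 1 or acetate replicate 2.

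Among the ligands, 1 of 5 tested rose and 2 fell, a median of -0.12. Il9, a cytokine gene of the common γ family, fell from 16.9 ± 4.13 to 7.82 ± 0.744 FPKM (limma adjusted p = 0.00202), and Ifng from 1118 ± 39.9 to 925.4 ± 18.4 FPKM (adjusted p = 0.00378). Without the filter on low values Ifng missed the threshold (adjusted p = 0.0566). The rise of Il2 (adjusted p = 0.0473) ended in the fits lacking control 1, control 3, acetate 1 or acetate 2 (adjusted p = 0.103 to 0.136). Il4, Il7, Il12b, Il15, Il18 and Il21 had means under 1 FPKM in both groups.

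Of 10 kinase and STAT symbols listed downstream of the chains, 9 matched, and Stat5a was not among these. Of the 9 genes tested, 6 fell and the other 3 did not pass, a median log2 change of -0.17. Over all tested genes, 16.9% were called lower. Stat3, used by IL-21, fell from 135.4 ± 1.10 to 108.8 ± 1.70 FPKM (limma adjusted p = 0.00053). Stat5b, used by IL-2, fell from 66.8 ± 0.802 to 56.3 ± 0.769 FPKM, and Stat4, used by IL-12, from 39.3 ± 1.504 to 32.7 ± 0.559 FPKM. Of 9 IL-18 adaptor and decoy genes 3 fell and 1 rose, a median of -0.09. The adaptor kinase gene Irak2 fell from 11.99 ± 0.302 to 9.64 ± 0.305 FPKM and the ubiquitin ligase gene Traf6 from 14.8 ± 0.441 to 12.9 ± 0.0652 FPKM. The kinase gene Map3k7 rose from 26.99 ± 0.347 to 30.4 ± 0.964 FPKM, a call lost with TPM rescaling, quantile normalization and cyclic loess.

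Of 11 feedback inhibitor genes 2 rose and 3 fell. Socs1, which restrains JAK kinases, rose from 55.8 ± 2.60 to 68.9 ± 0.744 FPKM (limma adjusted p = 0.00159), and Sh2b3, an adaptor that restrains JAK2, fell from 12.4 ± 0.610 to 10.2 ± 0.177 FPKM. When any library but acetate replicate 1 was left out, 1 gene of this list rose, and 1 fell without control replicate 2 or 3 or acetate replicate 2. Of 15 genes listed as IL-2 and STAT5 targets 5 rose and 5 fell, with a median log2 change of 0. Tnfrsf4, the OX40 gene, and Ccnd3, the cyclin D3 gene, rose by 0.45 and 0.41 on the log2 scale, and Cdkn1b, the gene of the cell cycle inhibitor p27, fell by 0.50. Of 19 interferon gamma targets 9 fell and 2 rose, a median of -0.17, with Gbp2, a guanylate-binding protein gene, falling from 24.1 ± 0.785 to 18.4 ± 0.482 FPKM and Cd274, the PD-L1 gene, by 0.48 on the log2 scale. Without acetate replicate 1, 4 genes of that list rose. Of 7 IL-4 and STAT6 targets 2 rose, Socs1 and the chemokine receptor gene Ccr8 (13.6 ± 1.10 to 17.8 ± 0.361 FPKM), and 5 did not pass.

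Of 23 transcription factor genes known to act on receptor genes in T cells, 7 fell and 3 rose, a median of 0.025. Fosl2, an AP-1 subunit gene, fell from 9.66 ± 0.0519 to 5.92 ± 0.216 FPKM (limma adjusted p = 0.000135), while Jund, another AP-1 subunit gene, rose from 42.4 ± 0.766 to 57.9 ± 3.69 FPKM (adjusted p = 0.000739). Nfkb1, an NF-kB subunit gene, fell by 0.24 on the log2 scale. After TPM rescaling, 1 gene rose in each of the lists of other receptor chains, feedback inhibitors and interferon gamma targets, and 3 IL-2 and STAT5 targets rose with quantile normalization or with no filter.

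**Figure D5:**
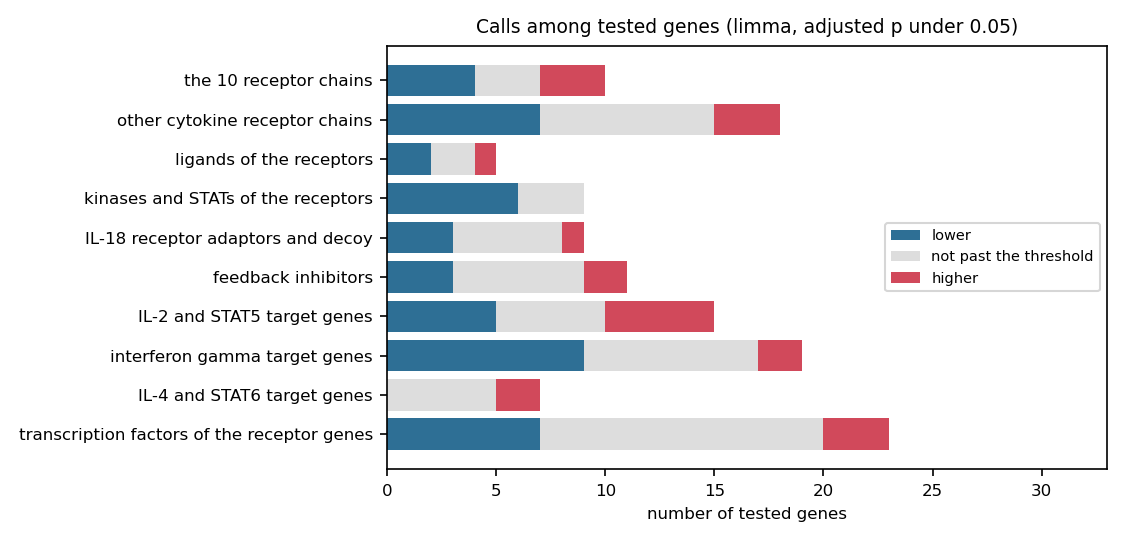
Number of tested genes (horizontal axis) called lower, not past the threshold, or called higher with acetate, in the 10 receptor chains and in each list of related genes. In the kinase and STAT list 6 of 9 genes are lower, and in the list of chains examined 4 are lower and 3 higher. Over all tested genes 16.9% are lower and 22.0% higher.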

How the data were processed

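The deposited values are FPKM per gene, made by the authors. The submitters' processing notes name cutadapt 1.18, HISAT2 2.1.0 and the mm10 build. The counting tool is not given in the sources used here. Multiplied by gene length, 100.0% of the authors' FPKM values were whole multiples of a step per library (tolerance 0.01 reads), which gave the read numbers and a limma-voom alternative. In some libraries the library size behind the FPKM values differed from the total of the recovered reads, and the reason was not tested.

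The 10867 genes whose mean of the 6 libraries reached 1 FPKM were compared as log2(FPKM + 1) with limma 3.58.1 in R 4.3.3, using an intensity trend and a single group term. The p-values are two-sided, adjusted by Benjamini-Hochberg over these genes, with a threshold of 0.05. Chain ratios were compared by exact permutation. The test was tried on simulated data. Alternatives changed the pseudocount (0.1 or 0.5), the filter (none, or 5 FPKM), the scaling, the trend and the replicate block, or left out each library. The members and lists were chosen with earlier results of these data known. Named genes were the 10 chains, Ifngr2, Il15ra and Il7r, and up to 3 genes of lowest p past the threshold per list. Protein sequences were not used here, and some marker values are not reported here.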

Additional observations from a re-analysis of the deposited data

How the results depend on the processing

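The sign of the log2 change of all 10 chains was the same under every alternative run, and so was that of every other gene named by rule except Ifngr2, which did not pass and went to 0.009 on the log2 scale with both quantile normalization and cyclic loess. After TPM rescaling, 1403 genes were called higher over all tested genes, 1 chain was higher and 7 were lower. With cyclic loess 1 chain was higher and 7 lower, and with quantile normalization 1 was higher. Over all tested genes 35.5%, 36.1% and 36.3% were called under these 3 scalings. When 1 library was left out, 1 to 2 chains were higher and 3 to 4 lower, and over all tested genes 1710 to 2290 were higher and 1359 to 1697 lower. Replicate numbers are shared by the groups, and deviations of same-numbered libraries correlated at -0.054, 0.026 and -0.039. Whether same-numbered libraries shared an animal, culture or batch is not stated, and correlations from so few libraries cannot decide it. With the replicate block, 1 chain was higher, since Il4ra and Il21r were lost (adjusted p = 0.0548 and 0.0727), and 33.1% of tested genes were called. All 64 alternative values of the 8 chain ratios moved by less than the larger of the SDs of the 2 groups; the log2 difference of Il18r1 to Il18rap ran from -0.11 with 1 FPKM added to 0.04 without acetate replicate 3. Reads per gene limit the low chains most, with 489 to 952 reads for Il18rap and 169 to 209 for Ifngr2. The cause of the changed calls was not tested.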

Other observations

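The genes named next lie beside other chains, were chosen after their values were seen, and all passed the threshold, as did 38.9% of all tested genes. Others beside chains did not pass, among them Tmprss6 (Il2rb), Foxo4 and Med12 (Il2rg), and Mast3 and Arrdc2 (Il12rb1), at limma adjusted p = 0.0854 to 0.676. C1qtnf6, on the other side of Il2rb, was higher by 0.32 on the log2 scale (adjusted p = 0.042). The tested genes on either side of Ifngr1 are Tnfaip3, whose product A20 restrains NF-kB, 603 kb before it, and Slc35d3, 246 kb after it. Both were lower with acetate, by -0.60 and -0.38 on the log2 scale (limma adjusted p = 0.000327 and 0.00163). Beside the rising Il21r, Gtf3c1, a transcription factor IIIC subunit gene 7.82 kb away on the opposite strand, was lower by -0.25 (adjusted p = 0.00282), and beside Il4ra, Nsmce1, 60.0 kb away, was higher by 0.38 (adjusted p = 0.00104). A row of 421 bases with no symbol inside the span of Il2ra, on the same strand, was at 17.6 ± 0.598 FPKM in controls and 14.8 ± 0.857 FPKM with acetate (adjusted p = 0.0102). It had at most 278 reads in a library, against 39743 to 53926 for Il2ra. Whether its reads came from Il2ra transcripts was not tested.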
